A study of Mus musculus with 6 samples.

Results

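Disease-associated microglia genes were followed here in coronal sections of the mouse brain at postnatal day 21 (P21), in adulthood and at 28 months. The set was named beforehand as 10 gene symbols, Trem2, Tyrobp, Cst7, Clec7a, Itgax, Lgals3, Gpnmb, Lpl, Cd68 and Axl, and its members were found by symbol among the 19465 genes of the count tables. Of these 10 symbols, 9 had a row in every table, and Clec7a was not analysed here. The choice followed no rule on measured values, but earlier results of these data were known when it was made.

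Formalin-fixed, paraffin-embedded brains of untreated male C57BL/6J mice were profiled with the Visium probe-based assay, which counts unique molecular identifiers (UMIs, 1 per captured probe molecule) on a grid of barcoded spots. There were 2 sections per age, labelled as biological replicates. The P21 mice were bred from purchased animals, the adult mice (12 to 15 weeks by the sample titles) came from a commercial supplier and the 28-month mice from the NIA. P21 and adult sections lay directly on the capture slide, whereas 28-month sections were transferred by the CytAssist instrument to the second slide version, whose probe design also differs. Age, supplier, probe design, slide version and instrument therefore cannot be told apart in any comparison with the 28-month sections. After spots with few UMIs were removed, 2917 to 3679 spots per section and 42422997 to 106783660 UMIs per section remained. The 28-month sections shared 0 spot barcodes with the others, and 2607 to 3363 were shared between sections of 1 slide version, which carries the same barcode grid on every slide.

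Microglia are the resident macrophages of the brain, and around damaged myelin, plaques or dying cells they can enter a state known as disease-associated. Trem2, a surface receptor for lipids, signals through the adaptor Tyrobp, and this pair is required for the full state. Genes of phagocytosis, lysosomes and lipid handling rise in that state, while genes of the resting, homeostatic state decline. Similar cells are known from aging white matter, where myelin debris accumulates.

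White matter was taken from the cluster in which all 10 genes of a myelin panel (Mbp, Mobp and others) were raised. That cluster also held ventricular spots, and its leading genes by fold were choroid plexus genes such as Ttr, so only spots in which the myelin panel led were kept as white matter. Myelin panel genes made up a median of 4.26% to 9.21% of the UMIs of these spots and 0.437% to 1.65% of those of gray matter spots. There were 302 to 418 white matter spots per section, 8.39% to 11.4% of all spots. Gray matter spots were those of the cortex, hippocampus, thalamus, striatum and the hypothalamus with adjoining ventral forebrain, 2332 to 3014 per section. The member genes and all microglial, immune, astrocyte and endothelial lists were kept out of this clustering. The leading genes of the white matter spots by fold nevertheless included Lgals3, next to C4b, Klk6 and C3. A spot can hold several cells of different types. In spot sums, fewer microglia and less RNA per microglia cannot be told apart, and levels are given as counts per 1000000 UMIs of the same compartment and section (CPM).

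Upstream sequence was read for the 7 measured members that have an entry in the promoter table (RefSeq, GRCm38.p6). It is shown for 3 members that hold a match and for 2 of the members with the largest rise that hold none. The window is the 120 bases before the annotated start, written 5′ to 3′ on the gene's strand, with matches to the PU.1 core or to AP-1 in capitals. PU.1 is the ETS factor that specifies macrophages and microglia, and AP-1 is a family of factors induced by activation.
Trem2, chr17:48346281-48346400, plus strand: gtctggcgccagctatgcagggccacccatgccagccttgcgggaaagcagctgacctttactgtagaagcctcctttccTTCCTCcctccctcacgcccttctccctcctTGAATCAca
Itgax, chr7:128129430-128129549, plus strand: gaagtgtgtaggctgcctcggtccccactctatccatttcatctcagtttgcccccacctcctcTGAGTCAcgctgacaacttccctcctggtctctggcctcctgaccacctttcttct
Cd68, chr11:69666171-69666290, minus strand: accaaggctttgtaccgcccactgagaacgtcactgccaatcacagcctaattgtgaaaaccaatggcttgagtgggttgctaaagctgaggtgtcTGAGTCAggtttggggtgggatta
Cst7, chr2:150570295-150570414, plus strand: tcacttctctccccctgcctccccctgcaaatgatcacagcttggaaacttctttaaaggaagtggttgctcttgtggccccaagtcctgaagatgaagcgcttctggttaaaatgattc
Gpnmb, chr6:49036398-49036517, plus strand: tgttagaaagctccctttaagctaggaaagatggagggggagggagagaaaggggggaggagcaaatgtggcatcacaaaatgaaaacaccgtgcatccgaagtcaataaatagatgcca

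Over the 250 bases before each start, both strands were searched for GAGGAA (PU.1 core), TGANTCA (AP-1) and the E-box forms CACGTG and CATGTG, which lysosomal regulators of the MiT family can bind. The PU.1 core was found upstream of Trem2, Cd68 and Axl, 3 of 7 members, and in 23.3% of all 32851 promoters. AP-1 was found upstream of Trem2, Itgax and Cd68, also 3 of 7, against 6.75% of all promoters, and Cd68 held 2 matches. Neither E-box form was found in the 7 members, and 6.02% and 12.3% of all promoters held them. No matches overlapped, and a match describes letters only.

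In white matter all 9 measured members were higher at 28 months than in the adult. The receptor Trem2 stood at 23.1 and 24.5 CPM in adult white matter and at 165 and 150.1 CPM at 28 months. Its adaptor Tyrobp stood at 32.1 and 42.3 CPM in the adult and at 154 and 161 CPM at 28 months. For both genes the lowest 28-month section lay over 3 times above the highest adult section. Axl, a receptor tyrosine kinase for phosphatidylserine-bound ligands on dying cells, changed less, from 45.7 and 49.3 CPM to 89.8 and 87.9 CPM.

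Among the lysosomal and phagocytic members, Cd68, a glycoprotein of late endosomes and lysosomes, was at 32.1 and 25.9 CPM in the adult and at 132 and 149 CPM at 28 months. Cst7 encodes cystatin F, an inhibitor of lysosomal cathepsins, and was at 0.90 and 2.16 CPM in the adult (5 and 12 UMIs) against 35.6 and 38.8 CPM. Gpnmb, a glycoprotein of lysosomes and phagocytes, was at 5.05 and 5.94 CPM against 83.5 and 104.5 CPM. The groups did not overlap for any of these 3 genes, though the share of all genes without overlap was not counted. For Cst7 and Gpnmb the adult values rest on 5 to 33 UMIs per section.

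The galectin Lgals3, which binds sugars on damaged lysosomal membranes, was at 5.05 and 4.86 CPM in adult white matter and at 98.2 and 136 CPM at 28 months. Lpl, the lipoprotein lipase, rose from 18.2 and 17.3 CPM to 36.3 and 40.8 CPM. The integrin Itgax, which encodes CD11c and also marks dendritic cells, had 3 UMIs in all adult white matter, 1 and 2 per section, and 61 and 55 UMIs at 28 months. The ratio of its pooled levels was 43.3, with a 95% exact interval of 14.4 to 213 that covers counting error only.

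**Figure D1:**
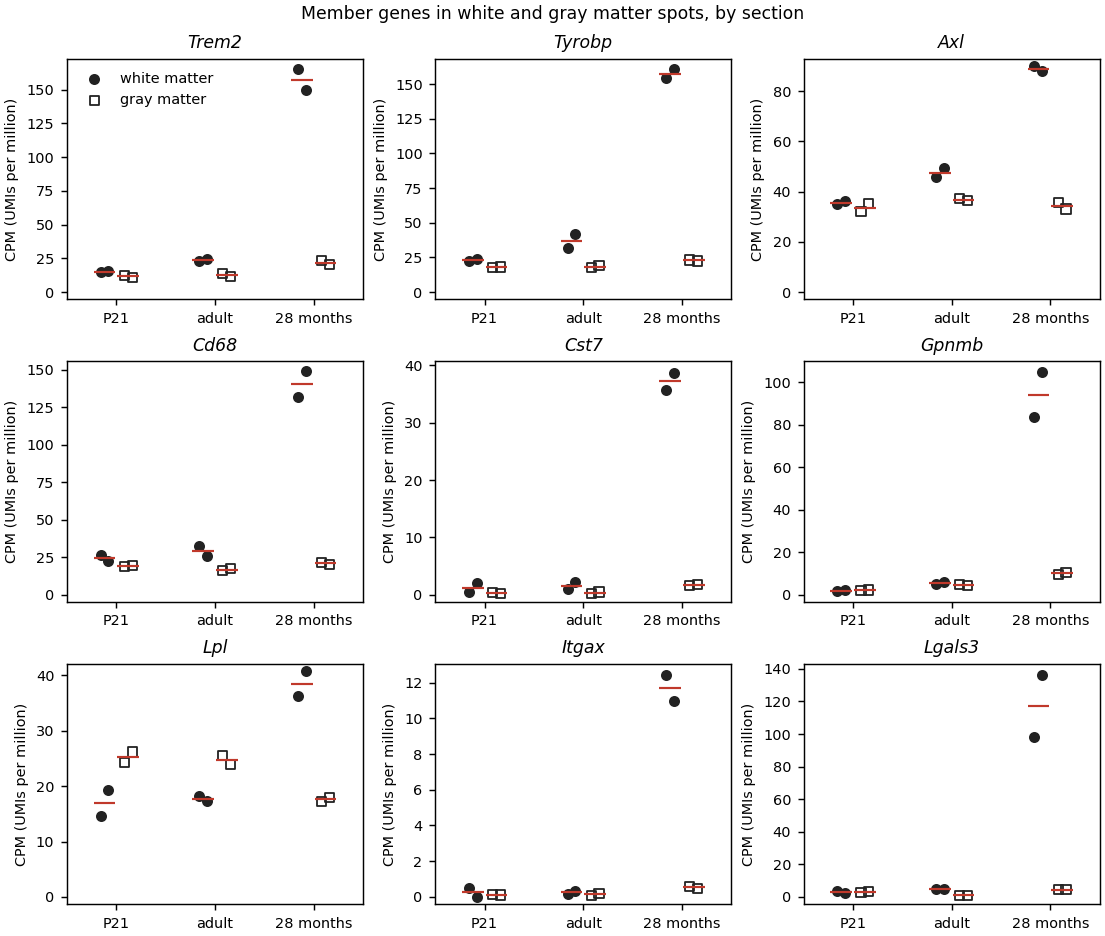
Level of each measured member in CPM (UMIs per 1000000 of the same compartment, linear axis) in white matter spots (filled circles) and gray matter spots (open squares) at P21, in the adult and at 28 months. Each symbol is 1 of 2 sections and the red line their mean. White matter at 28 months stands above every other group in all 9 panels.

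By edgeR's quasi-likelihood test over 13636 genes in white matter, 9 of 9 members passed an adjusted p under 0.05 with a fold over 1.5, all of them higher at 28 months. In the same fit 18.3% of all tested genes were called higher, and the median log2 change of all genes was 0.03. The log2 fold change of Trem2 was 2.74 (SE 0.11, adjusted p = 4.03e-13, edgeR), of Tyrobp 2.10 and of Axl 0.92. Cd68 changed by 2.29, Cst7 by 4.60 and Gpnmb by 4.11 on the log2 scale. Lgals3 changed by 4.57 (SE 0.19), Lpl by 1.13 and Itgax by 5.34 (SE 0.49). Adjusted p-values ranged from 4.03e-13 to 3.48e-06. Ranked by log2 change among the 13636 genes, Itgax was 78th, Cst7 99th, Lgals3 100th and Gpnmb 118th, while Trem2 was 239th, Lpl 1258th and Axl 1694th.

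Low levels moved upward as a class at 28 months, which bears on Cst7, Itgax and Lgals3 in white matter and also on Gpnmb in gray matter. Of the 2139 genes below 5 CPM in adult white matter, 46.5% were called higher, with a median log2 change of 0.84. Of the 3062 genes at 5 to 20 CPM, where Gpnmb lay in white matter, 24.1% were called higher, with a median of 0.16, and of the 8435 genes at 20 CPM or more, 8.97%. In gray matter the shares were 46.8% of 5693 genes below 5 CPM and 2.89% of 8299 genes at 20 CPM or more. Since the adult level enters both the class and the fold, these shares are a description. The part of the slide version in them was not tested.

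**Figure D2:**
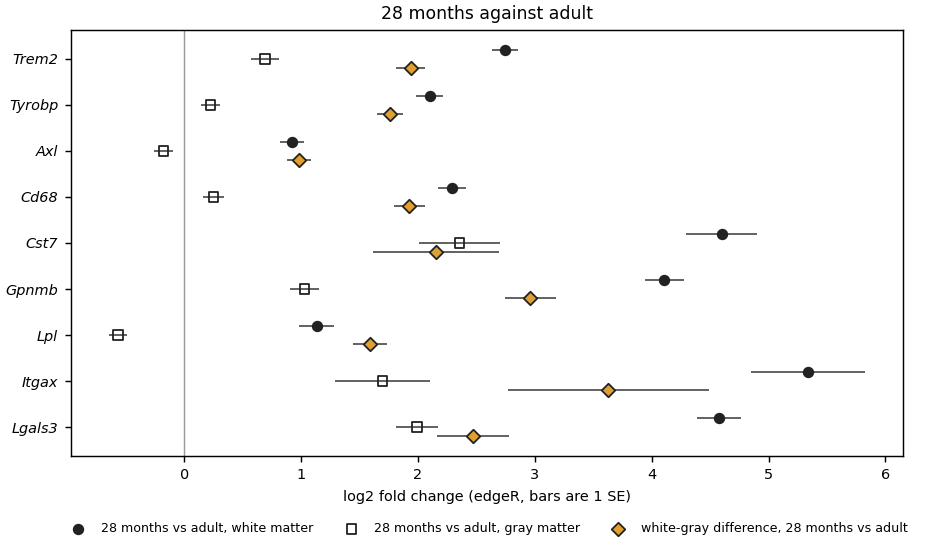
Log2 fold change of each member at 28 months against the adult in white matter (filled circles) and gray matter (open squares), and the difference between the white-to-gray contrasts of both ages (diamonds), by edgeR over 2 sections per age. Bars are 1 SE. Circles run from 0.92 for Axl to 5.34 for Itgax, and Axl and Lpl lie below 0 in gray matter.

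In gray matter the changes were smaller. Trem2 was at 14.0 and 11.7 CPM in the adult and at 23.5 and 20.4 CPM at 28 months, and its log2 change was 0.69 (SE 0.12, adjusted p = 0.00122, edgeR). Gpnmb rose from 4.85 and 4.43 CPM to 9.50 and 10.6 CPM, and Lgals3 from 1.09 and 1.03 CPM to 4.50 and 4.39 CPM. These groups did not overlap, and the share of all genes without overlap was not counted. Cst7 (0.17 and 0.45 CPM against 1.56 and 1.80 CPM) and Itgax (0.09 and 0.21 CPM against 0.59 and 0.48 CPM) were also called higher, at levels far under those in white matter. With Trem2 that made 5 of 9 members, where 18.2% of all tested genes were called higher. Of these 5 members, 4 were below 5 CPM in adult gray matter, the class in which 46.8% of genes were called.

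Cd68 (15.9 and 17.1 CPM against 21.5 and 20.02 CPM) and Tyrobp (17.9 and 19.1 CPM against 23.2 and 22.5 CPM) did not reach the fold threshold in gray matter, with log2 changes of 0.25 and 0.22. Axl stood at 37.2 and 36.5 CPM against 35.8 and 33.1 CPM, a log2 change of -0.18 (adjusted p = 0.0777, edgeR). Lpl went the other way than in white matter, from 25.5 and 23.9 CPM to 17.3 and 17.9 CPM. Its log2 change of -0.57 (SE 0.08, adjusted p = 0.00032, edgeR) fell just short of the fold threshold.

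Over whole sections 5 of 9 members were called higher at 28 months, Cst7, Itgax, Lgals3, Gpnmb and Trem2, where 23.8% of all genes were. Whole-section levels hid most of the change. Trem2 rose from 15.6 and 13.7 CPM to 33.5 and 28.0 CPM, and Axl stayed at 41.8 and 39.8 CPM against 40.9 and 37.4 CPM. Without the spot position Lpl appeared lower, at 23.9 and 22.9 CPM against 18.3 and 19.0 CPM, although its white matter level had risen.

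The difference between compartments was itself tested, with each section as a block. At 28 months all 9 members were called higher in white than in gray matter, where 36.9% of all genes were. Log2 differences ran from 1.13 for Lpl and 1.37 for Axl to 4.47 for Cst7 and 4.71 for Lgals3. In the adult 5 of 9 were called higher in white matter, Tyrobp, Trem2, Cd68, Lgals3 and Cst7, where 10.6% of all genes were. Lpl did not reach the fold threshold there, at 18.2 and 17.3 CPM in white and 25.5 and 23.9 CPM in gray matter. At P21 Cst7 alone was called, on 10 UMIs in white matter, where 9.21% of all genes were called higher.

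The white-to-gray contrast was larger at 28 months than in the adult for 9 of 9 members, by an adjusted p under 0.05, where 14.8% of all genes were called higher. The change of the contrast was 1.94 on the log2 scale for Trem2 (SE 0.12, adjusted p = 5.1e-17, edgeR), 1.76 for Tyrobp and 0.98 for Axl. It was 1.93 for Cd68, 2.15 for Cst7 and 2.96 for Gpnmb. For Lgals3 it was 2.47, for Lpl 1.59 and for Itgax 3.63 (SE 0.86). With all sums thinned to the lowest total 7 of 9 were called, Itgax no longer passed and Cst7 turned to -1.61 without passing. Without adult section 2 it was also 7 of 9, and Cst7 and Itgax no longer passed. By the size of this change among 17460 genes the members were not at the top, with ranks from 1216 for Itgax to 3764 for Axl and 2249 for Trem2.

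Spots of 28-month white matter held fewer UMIs than gray matter spots of the same sections, with medians of 10931 and 12664 against 21908 and 28918. At the other ages the compartments differed less (adult white matter 17508 and 14773, gray matter 16727 and 14791). CPM therefore raises white matter against gray matter at 28 months. Counted per spot, Trem2 was at 1.94 and 2.11 UMIs in white and 0.568 and 0.672 UMIs in gray matter at 28 months, against 0.412 and 0.371 in white and 0.254 and 0.188 in gray matter of the adult. Lgals3 was 10.6 and 13.2 times as abundant per white matter spot as per gray matter spot at 28 months, and 4.56 and 4.47 times in the adult.

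On this per-spot scale 7 of 9 members remained higher in white than in gray matter at 28 months, where 13.1% of all genes did. Lpl had 0.426 and 0.573 UMIs per white matter spot against 0.418 and 0.592 per gray matter spot, a log2 difference of -0.011 (adjusted p = 0.948, edgeR), and Axl differed by 0.23 (adjusted p = 0.0825, edgeR). The contrast was larger than in the adult for 7 of 9 members, where 1.03% of all genes were. Cst7 gave 1.1 (adjusted p = 0.0653, edgeR) and Axl -0.079 (adjusted p = 0.746, edgeR). Axl had 0.814 and 0.747 UMIs per white matter spot in the adult and 1.06 and 1.24 at 28 months, without overlap, and its gray matter level per spot was also higher, at 0.673 and 0.586 against 0.865 and 1.09 UMIs. Its white-to-gray ratio per spot was 1.21 and 1.27 in the adult and 1.22 and 1.13 at 28 months.

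**Figure D3:**
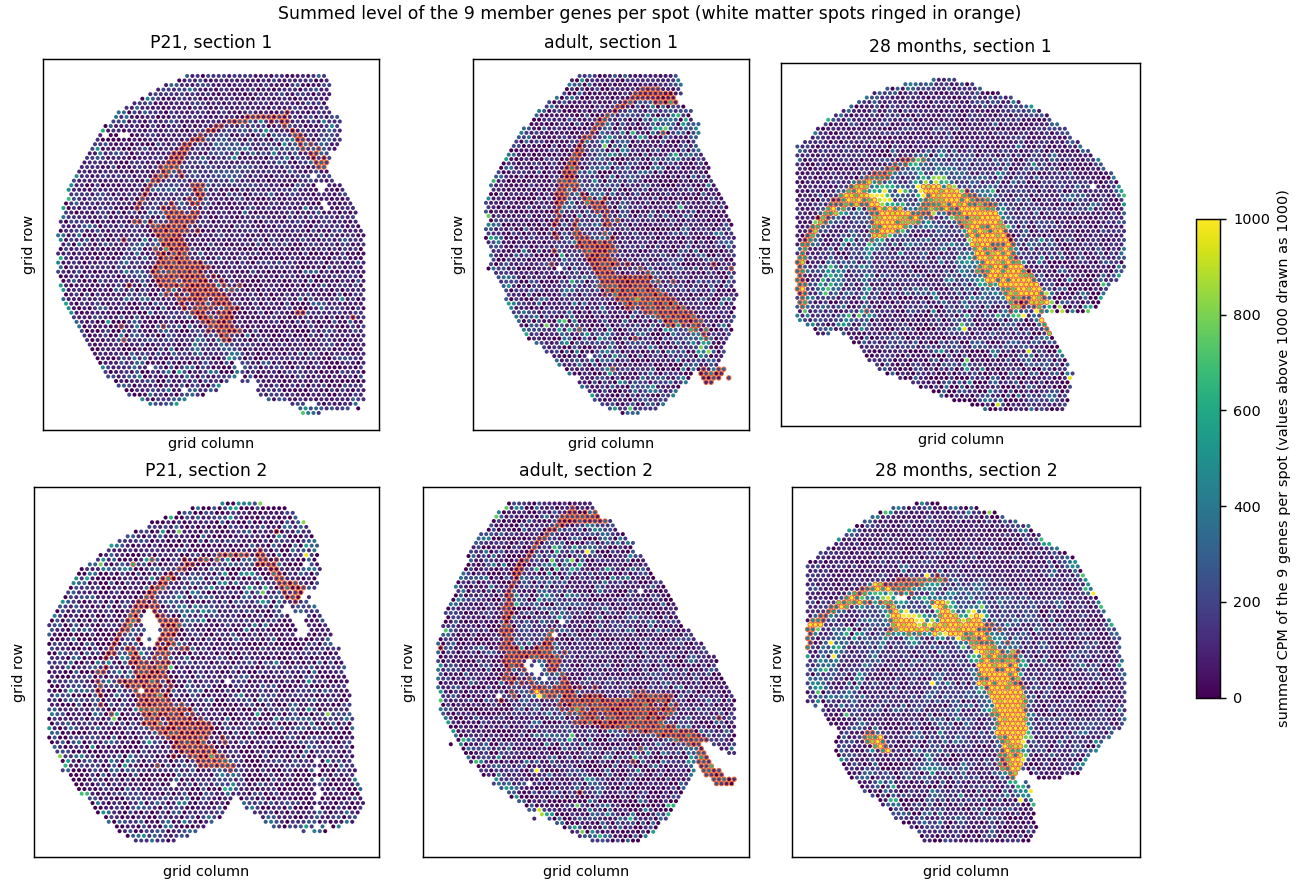
Spot maps of the 6 sections (axes, grid column and row), with colour giving the summed CPM of the 9 measured members in each spot and white matter spots ringed in orange. The tracts stand out as a bright band in both 28-month sections and not at P21 or in the adult, where the rings lie on the colour of the surrounding gray matter.

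White matter supplied a larger share of the UMIs of 8 members at 28 months than in the adult, and Axl, at 11.5% and 13.4% in the adult against 13.1% and 11.01%, overlapped between the ages. The proportion of all genes that gained such a share was not counted. Adult shares of Itgax and Cst7 rest on only 3 and 17 UMIs in white matter. At 28 months 29.5% and 25.1% of all Trem2 UMIs of a section came from white matter spots, which held 11.4% and 9.97% of the spots and 5.99% and 4.69% of all UMIs. In the adult this share was 15.7% and 19.3% for Trem2. For Lgals3 it was 49.6% and 52.1% at 28 months, 19.4% and 23.5% in the adult and 8.46% and 4.57% at P21. Cst7 (54.5% and 47.0%) and Itgax (51.3% and 48.7%) had about as large a share in 28-month white matter as Lgals3, and Lpl (11.9% and 10.0%) the smallest of the 9.

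The deeper white matter showed higher levels still. In white matter spots whose neighbours were all white matter, Trem2 stood at 213 and 197 CPM, Lgals3 at 133 and 191 CPM and Gpnmb at 110.0 and 156 CPM at 28 months. In the adult those spots held 22.4 and 21.6 CPM of Trem2 and 5.72 and 5.85 CPM of Lgals3. With distance from the tracts the levels fell off within a few grid steps. Trem2 was at 47.3 and 48.9 CPM in gray matter spots 1 step from white matter at 28 months, at 33.7 and 19.9 CPM 2 steps away and at 20.5 and 16.7 CPM 10 or more steps away. Gray matter spots 1 step away can hold some white matter.

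Lgals3 fell from 98.2 and 136 CPM in white matter to 18.4 and 23.5 CPM at 1 step and to 1.97 and 2.48 CPM at 10 or more steps. In the adult Trem2 went from 23.1 and 24.5 CPM in white matter to 17.6 and 15.0 CPM at 1 step and 10.0 and 11.6 CPM at 10 or more steps, a shallow slope of the same direction. Lpl had a different profile, with the highest gray matter level 2 or 3 steps from the tracts at every age, 37.8 to 50.7 CPM at 2 steps over all 6 sections. Hippocampal spots, which border the tracts, had the highest Lpl of the gray matter regions, 58.9 to 74.6 CPM over the 6 sections.

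**Figure D4:**
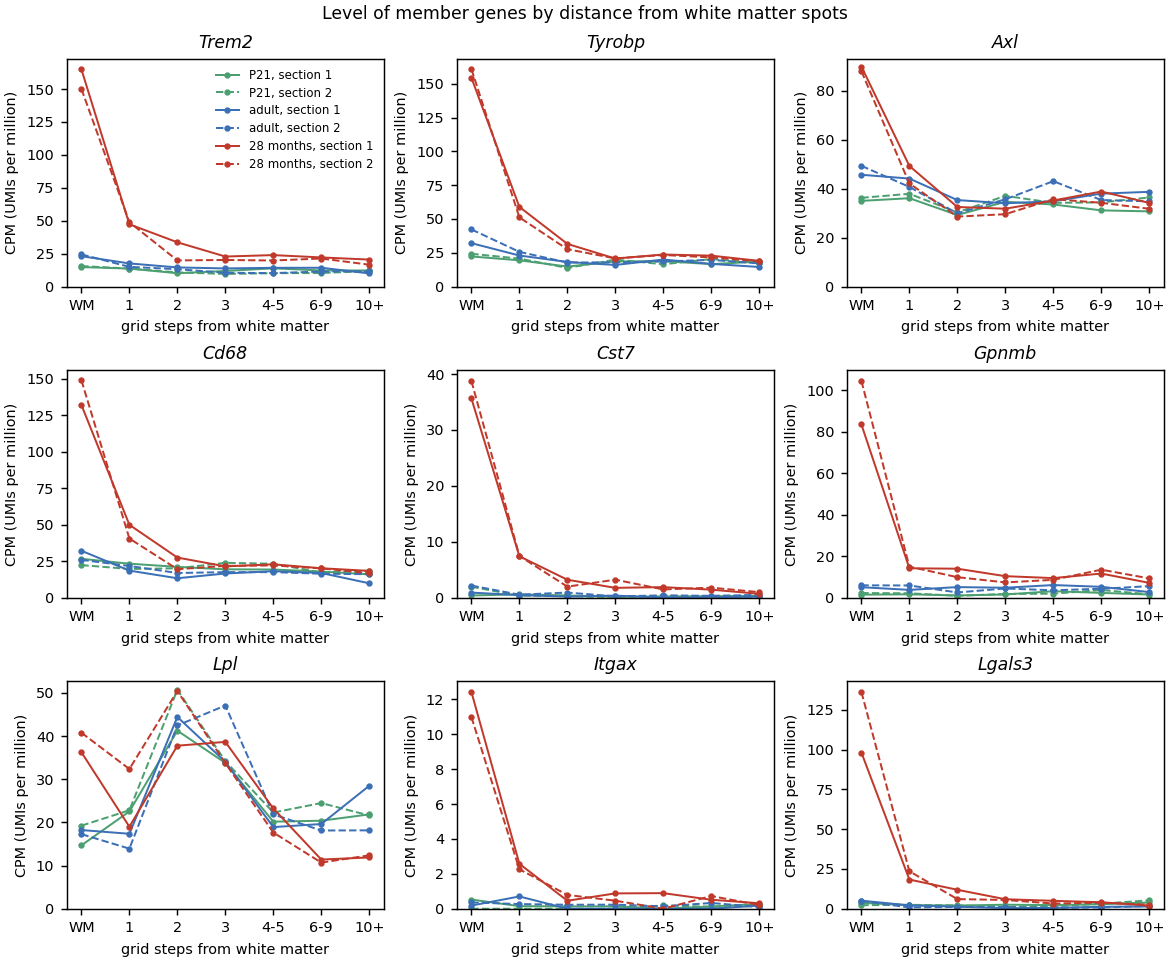
Level of each member in CPM (linear axis from 0) in white matter spots (WM) and in gray matter spots by grid steps to the nearest white matter spot. Lines are single sections, green for P21, blue for the adult and red for 28 months. At 28 months 8 of 9 genes drop steeply from white matter to the first steps, and Lpl has a second maximum at 2 to 3 steps.

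The share of spots with at least 1 UMI was compared after each spot was thinned to 5000 UMIs, which left out 0 to 9 white matter spots and 1 to 34 gray matter spots per section. Trem2 was found in 53.1% and 49.0% of white matter spots at 28 months, in 11.3% and 10.7% in the adult and in 4.97% and 7.30% at P21. Tyrobp was found in 55.7% and 54.1% at 28 months and in 12.2% and 16.4% in the adult. Lgals3 went from 0.965% and 1.64% of spots to 34.2% and 45.9%, and Gpnmb from 2.57% and 3.28% to 29.3% and 35.5%. In gray matter at 28 months Trem2 was found in 11.4% and 10.8% of spots and Lgals3 in 3.1% and 2.83%. Without thinning the white matter shares at 28 months were 79.9% and 78.9% for Trem2 and 55.0% and 73.9% for Lgals3. The unthinned gray matter shares at 28 months were 39.4% and 44.6% for Trem2 and 8.62% and 10.5% for Lgals3. Adult white matter had Trem2 in 33.1% and 28.9% of spots without thinning. At 28 months thinning took a larger part of the UMIs from gray matter spots, which held more, so it raises white matter against gray matter as CPM does.

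In most pairs of members, white matter spots with 1 member held the other somewhat more often than spots without it at 28 months. Over the 72 ordered pairs of members, the share of spots with the second gene was higher among spots with the first gene than among spots without it in 56 pairs of section 1 and 68 pairs of section 2, by a median of 6.32 and 7.33 percentage points. Each pair enters in both orders, which always share a direction, so the orders are not separate observations. No such count was made over pairs of other genes, and the part of depth within the white matter was not tested. Among spots with Trem2, 53.0% and 57.5% had Cd68, against 37.5% and 43.6% of spots without it. The pair Trem2 and Gpnmb went opposite ways in the sections, 27.6% against 31.2% in section 1 and 43.1% against 28.2% in section 2. P2ry12, a purinergic receptor of homeostatic microglia, was found in 28.6% and 33.9% of spots with Trem2 and in 38.0% and 37.6% of spots without it.

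Moran's I, the deposited score of spatial clustering in which 0 is no clustering and 1 complete clustering, was higher at 28 months than in the adult for all 9 members. How many of all genes also had a higher score was not counted, so ranks are given beside the scores. For Trem2 it was 0.00894 and 0.00567 at P21, 0.00203 and 0.00960 in the adult and 0.306 and 0.297 at 28 months. Its rank moved from 12797 of 17463 and 9745 of 17185 genes in the adult to 1223 of 19357 and 1536 of 19363 genes. Lgals3 had the highest score of the members at 28 months, 0.397 and 0.501, after 0.107 and 0.0731 in the adult. By rank as a percentage of the genes listed, 7 members moved up from the adult to 28 months without overlap. The share of all genes that did so was not counted. Itgax did so only narrowly, from 91.5% and 29.7% in the adult (5 and 17 UMIs) to 28.0% and 25.3%. Its plain ranks overlapped, with 5102 in adult section 2 and 5425 in 28-month section 1. Axl ranked in the top 30.2% and 43.2% of genes in the adult and 30.1% and 33.2% at 28 months, with scores of 0.0595 and 0.0638 at 28 months. Lpl ranked in the top 9.71% and 7.09% in the adult and 8.75% and 8.13% at 28 months, so the ranks of both did not separate the ages although their scores were higher. Lpl was the only member with a score over 0.09 in every section, from 0.0993 to 0.293.

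By region, 28 months against the adult, the thalamus had the most members called. There 7 of 9 were called higher, where 7.25% of all genes were, and Lpl was lower, where 7.63% were. Lgals3 rose in the thalamus from 0.96 and 0.50 CPM to 8.29 and 6.98 CPM (log2 change 3.44), Cst7 from 0.12 and 0.30 CPM to 2.79 and 3.29 CPM (3.77) and Trem2 from 11.5 and 12.4 CPM to 27.8 and 23.9 CPM (1.14). Lpl fell by 1.27 on the log2 scale there, from 9.46 and 9.12 CPM to 3.57 and 4.01 CPM. Without adult section 1, 5 members were called in the thalamus in either direction, after 8 with it.

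In the striatum 6 of 8 tested members were called higher, where 8.25% of all genes were, Trem2, Tyrobp, Cd68, Cst7, Gpnmb and Lgals3. Gpnmb went from 2.88 and 1.64 CPM to 12.2 and 9.59 CPM (log2 change 2.22, adjusted p = 0.000265, edgeR). In the cortex 4 of 8 tested members were called higher, where 7.93% of all genes were, and Lpl was lower, where 4.67% were, from 16.7 and 19.7 CPM to 9.92 and 9.06 CPM (-0.96). In the hypothalamus and ventral forebrain 4 of 8 were called higher, where 7.42% were. In the hippocampus 3 of 7 were called, Gpnmb, Lgals3 and Trem2, where 6.28% were, and without adult section 2 it was 0 by edgeR.

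Trem2, Gpnmb and Lgals3 were called higher in all 5 gray matter regions, and Axl in none of them. Gpnmb had its highest gray matter level in the hippocampus in all 6 sections, 16.3 and 24.2 CPM at 28 months after 10.9 and 8.56 CPM in the adult. Cd68 stood highest in the striatum, at 45.9 and 46.4 CPM at 28 months and at 26.3 and 32.8 CPM in the adult. The regions hold different amounts of myelinated fibres, and their part in these changes was not tested.

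**Figure D5:**
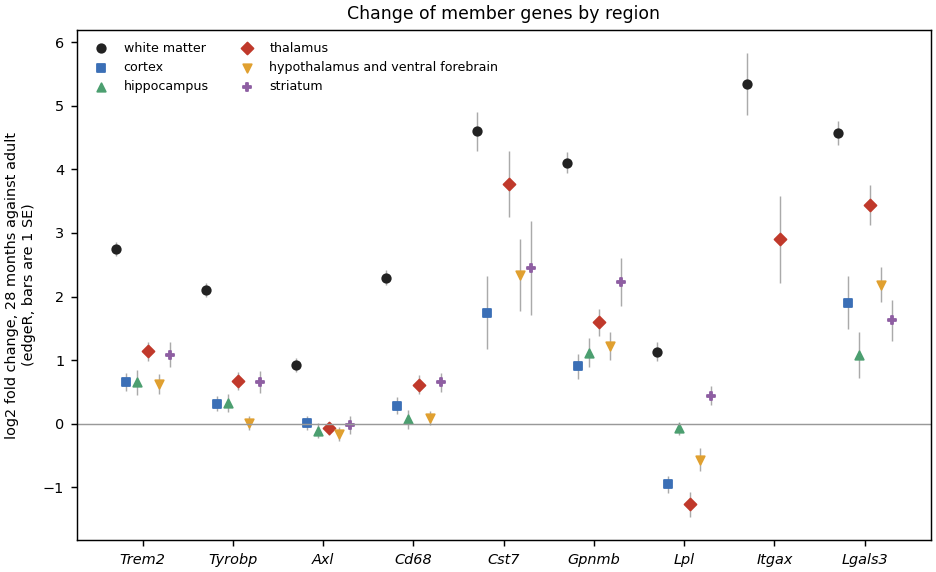
Log2 fold change of each member at 28 months against the adult (edgeR, 2 sections per age, bars are 1 SE) in white matter and 5 gray matter regions. A missing symbol marks a gene under the count filter in that region. White matter is highest for all 9 genes, and the thalamus comes next for Trem2, Tyrobp, Cst7 and Lgals3. Among gray matter regions Itgax was tested in the thalamus only. Lpl lies below 0 in every gray matter region but the striatum.

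Spots outside both compartments were looked at too. In ventricular spots, those of the same cluster in which a panel of choroid plexus and ependyma led (26 to 65 per section), Lgals3 was already high at P21 (45.8 and 58.0 CPM) and in the adult (36.2 and 36.5 CPM), and stood at 97.9 and 101 CPM at 28 months. Trem2 there was at 16.8 and 18.2 CPM in the adult and at 59.7 and 84.3 CPM at 28 months. Meningeal spots had Axl at 67.0 and 83.2 CPM at P21 and at 96.1 to 122 CPM in the other 4 sections, in which the adult and 28 months overlapped. Lgals3 there stood at 4.22 to 14.3 CPM, with overlap of 28 months with both younger ages. These spots were compared without a test.

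Between P21 and the adult the members moved little. In white matter 3 of 9 were lower at P21, where 3.94% of all genes were, and none was higher. Trem2 was at 14.8 and 15.6 CPM at P21 (log2 change -0.59 against the adult), Tyrobp at 22.3 and 24.3 CPM (-0.63) and Gpnmb at 1.44 and 2.23 CPM (-1.62, SE 0.35). Values did not overlap between the ages for these 3, and the share of all genes without overlap was not counted. Without P21 section 1 none of the 3 was called, and without adult section 2 only 1 was.

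In gray matter Lgals3 was higher at P21, at 2.83 and 3.38 CPM against 1.09 and 1.03 CPM in the adult (log2 change 1.52), where 6.55% of all genes were called higher. Gpnmb was lower, at 2.003 and 2.17 CPM against 4.85 and 4.43 CPM (-1.18), where 2.23% were called lower. The same pair of genes was called over whole sections, where 5.69% of all genes were higher and 2.37% lower. The white-to-gray contrast was smaller at P21 than in the adult for Lgals3 (-2.06, SE 0.40) and Tyrobp (-0.56, SE 0.14), where 2.59% of all genes had a smaller contrast. Lgals3 thus stood at 3.67 and 2.23 CPM in P21 white matter, close to its gray matter level, while in the adult white matter exceeded gray matter by 4.64 and 4.74 times. Cst7 had 10 and 17 UMIs in P21 and adult white matter, a ratio of 0.582 with a 95% exact interval of 0.238 to 1.35 for counting error.

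Other genes of the disease-associated state moved the same way in 28-month white matter. Of 30 listed genes 23 were higher and 0 lower, where 18.3% of all genes were called higher, with a median log2 change of 1.94 against 0.03 for all genes. In gray matter 12 of 30 were higher with a median of 0.36, where 18.2% of all genes and 46.8% of those below 5 CPM in the adult were. The largest rises were those of Cd300lb (a receptor of the CD300 family, 5.06), Lyz2 (lysozyme, 3.82) and Cybb (the gp91 subunit of the phagocyte NADPH oxidase, 3.82). Cybb was at 1.99 and 1.08 CPM in adult and at 17.5 and 25.8 CPM in 28-month white matter. Cd300lb and Lyz2 stayed below 5 CPM in every white matter sum. Fabp5 (0.01), Timp2 (-0.04) and Hif1a (0.03) did not pass the test.

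Of 16 genes around Trem2 signalling 13 were higher in 28-month white matter, median 1.59, where 18.3% of all genes were. In gray matter 3 of 16 were higher, a share near the 18.2% of all genes, and 1 was lower, with a median of 0.20. The share of all genes called lower in gray matter is not given. The largest rises were those of Ms4a6d (a member of the MS4A cluster, 2.98), Hcst (the adaptor DAP10, 2.18) and Card9 (an adaptor downstream of Syk, 2.03). The kinase Syk changed by 1.62 and the phospholipase Plcg2 by 1.85. Grb2 did not reach the fold threshold, at -0.32.

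Many homeostatic microglia genes also rose in white matter. Of 20 listed genes 19 were tested, 14 were higher and 0 lower, where 18.3% of all genes were called higher, with a median log2 change of 1.26. The largest rises were those of the complement genes C1qb (2.29), C1qa (2.06) and C1qc (1.96). The list was uneven, since Tmem119 rose by 1.36 and Cx3cr1 by 1.17, whereas P2ry12 stood at 84.1 and 88.4 CPM in the adult and at 89.2 and 89.9 CPM at 28 months (0.07). In gray matter 0 of 20 were higher, where 18.2% of all genes were, and 3 were lower, P2ry12 (-0.67), P2ry13 (-0.84) and Siglech (-0.62). The share of all genes called lower there is not given, so this count is a description only.

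Markers of other cells moved in the same spots. Of 10 T cell markers 7 were tested and all 7 were higher in 28-month white matter, where 18.3% of all genes and 46.5% of those below 5 CPM in the adult were, the class in which these markers lay. The summed level of the 10 markers was 32.6 and 95.3 CPM against 4.46 to 7.38 CPM at the younger ages. Cd3e and Cd8a had 0 UMIs in adult white matter and 58 and 36 UMIs at 28 months. Trac and Lck were already present in the adult, with 25 and 28 UMIs, and had 62 and 56 UMIs at 28 months. Ccl5 was the highest of the 10 markers, at 29.9 CPM over both 28-month sections against 1.08 CPM in the adult. Dendritic cell markers summed to 56.6 and 294 CPM in the 28-month sections against 17.8 to 33.3 CPM at the younger ages, with 3 of 5 tested markers higher. Pooled over both sections, Cd74 alone made up most of the 28-month level, at 148 CPM against 15.4 CPM in the adult. The next highest marker, Zbtb46, stood at 8.98 against 8.29 CPM. Border macrophage markers summed to 65.8 and 65.0 CPM against 27.0 to 38.2 CPM, with 4 of 7 tested markers higher. Stab1 made up the largest part of these sums, at 35.1 CPM over both 28-month sections and 18.3 CPM in the adult. All other markers of this list lay below 5 CPM in the adult, where 46.5% of genes were called higher. Pf4 alone was lower at 28 months than in the adult, at 2.93 against 3.15 CPM. The range for monocyte and neutrophil markers was 98.1 to 103 CPM at 28 months, 77.2 to 82.1 CPM in the adult and 138 to 142 CPM at P21, with 1 of 2 tested markers higher at 28 months. Fn1 and Vcan made up most of these sums. Over both sections they stood at 68.0 and 68.8 CPM at P21, 47.8 and 30.5 CPM in the adult and 47.8 and 45.6 CPM at 28 months. No other marker of this list exceeded 1.52 CPM at any age, so the sums say little about them.

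The summed level of the 20 homeostatic genes was 8462 and 8739 CPM in 28-month white matter against 3941 to 4644 CPM at the younger ages. Oligodendrocyte markers (2 of 10 higher) summed to 51512 and 51993 CPM against 43765 and 44703 CPM in the adult. Astrocyte markers summed to 6622 and 6771 CPM against 3469 and 3515 CPM, with 5 of 10 higher. Neuron markers summed to 3462 and 3498 CPM against 7052 and 7390 CPM, with 1 higher and 7 lower of 10. Lists of oligodendrocyte precursors (0 higher, 1 lower of 10), endothelial cells (3 higher, 4 lower of 9) and meninges (1 higher, 2 lower of 10) completed the set. Of all genes 18.3% were called higher in this fit. The share called lower is not given, so the counts of lower markers are a description only. The part of cell composition in the rise of the members was not tested.

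Over the 12 sums of section and compartment, each member's log2(CPM + 1) followed the mean of the others, with Pearson r from 0.70 for Lpl and 0.94 for Gpnmb to 0.98 for Trem2. Outside all lists, the 5 genes most like the mean member profile among 11477 genes were Fes (a tyrosine kinase of myeloid cells, r = 0.99), Plcd4, Glipr2, C3 (the third complement component) and Cd151. C3 was at 1.99 and 1.08 CPM in adult and at 55.0 and 84.9 CPM in 28-month white matter. Fes was at 6.14 and 5.94 CPM against 24.4 and 22.8 CPM. These 12 points come in pairs from 6 sections and share the slide version at 28 months, so the correlations describe this set of sums only.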

How the data were processed

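The deposited count tables hold whole-number UMI counts per probe-targeted gene and spot. Per the file headers the authors made them with Space Ranger 2.0.0 (P21, adult) and 3.1.1 (28 months), while the submitters' processing notes name Space Ranger 2.1.0, Seurat 5.1.0 and mm10. The deposited Moran's I is a score per gene and section, and other deposited columns give grid positions. Probe counts carry no transcript length, so levels were not compared between genes.

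Spots with at least 500 UMIs and 250 genes were kept (20336 of all sections). Regions were rebuilt by Leiden clustering (leidenalg 0.10.2, resolution 0.2, 8 clusters) and named from marker panels. One cluster of ventral forebrain with a weak hypothalamic panel was counted with the hypothalamus. UMIs were summed per section and compartment, with sections as replicates. The precision of a value follows from the UMIs behind it, and intervals cover counting error only. Doublet calling does not apply to spots. Genes passing filterByExpr were tested with edgeR 4.0.16 (glmQLFit, TMM, Benjamini-Hochberg), and called at an adjusted p under 0.05 with a fold over 1.5. For the contrast of compartments between ages the section was a block and no fold was asked. Scripts were tested on simulated data.

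Alternatives were plain totals, DESeq2 1.42.0, no filter, detection in over 10% of spots, thinned sums, each section left out, the replicate number as a block, white matter by myelin score, and spots with like neighbours only. Scaling per spot was added after the data had been seen. All members were to be named. Of the disease-associated, Trem2 signalling and homeostatic lists, the 3 largest rises and falls called in white matter were to be named, and the 5 genes most like the members. Fabp5, Timp2, Hif1a, Syk, Plcg2, Grb2, Tmem119, Cx3cr1, P2ry12, P2ry13, Siglech, Cd3e, Cd8a, Trac, Lck, Ccl5, Stab1 and Pf4 were named after their values were seen. Members and lists were chosen with earlier results of these data known. With 2 sections per age, p-values rest on the spread between sections of the same age, estimated over all 3 ages together. That estimate also borrows from the spread of other genes. In the fits of white against gray matter it is the spread of the compartment difference. Sequences come from RefSeq, GRCm38.p6.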

Additional observations from a re-analysis of the deposited data

Results flagged for a closer look

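The change from the adult to 28 months differed between white and gray matter for all 9 measured members, by a test of that difference in edgeR with the section as a block. On the log2 scale the white matter change exceeded the gray matter change by 3.63 for Itgax, 2.96 for Gpnmb, 2.47 for Lgals3, 2.15 for Cst7, 1.94 for Trem2, 1.93 for Cd68, 1.76 for Tyrobp, 1.59 for Lpl and 0.98 for Axl. Between P21 and the adult it differed for 2 members, Lgals3 at -2.06 and Tyrobp at -0.56, which means a smaller contrast at P21. Not all of these held under other settings. With thinned sums 7 of 9 passed, Itgax was lost and Cst7 turned to -1.61, and without adult section 2 it was again 7 of 9, without Cst7 and Itgax. Scaled per spot 7 of 9 passed, Axl turned to -0.079 and Cst7 did not pass (adjusted p = 0.0653, edgeR). With 2 sections per age no section could be tested as standing apart from the rest of its group.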

How the results depend on the processing

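The count of members higher in white matter at 28 months was 9 of 9 in every fit that left out 1 section (9 to 9), and so was that of white against gray matter at 28 months (9 to 9). Leaving out 1 section gave 7 to 9 for the change of the contrast at 28 months, 4 to 6 in gray matter, 5 to 5 over whole sections, 4 to 5 in the cortex, 3 to 4 in the hypothalamus, 4 to 6 in the striatum, 5 to 8 in the thalamus and 0 to 3 in the hippocampus. Between P21 and the adult it gave 0 to 3 in white matter, 2 to 2 in gray matter, 1 to 3 over whole sections and 1 to 3 for the contrast, and for white against gray matter 1 to 2 at P21 and 5 to 5 in the adult.

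With genes kept only where over 10% of spots detect them, which tests fewer genes, the members called were 0 for P21 in gray matter, 1 in white matter and 0 over whole sections, and at 28 months 3 in the cortex, 2 in the hypothalamus, 5 in the thalamus, 2 in gray matter and 2 over whole sections. For white against gray matter that filter gave 0 at P21 and 3 in the adult, and 1 for the P21 contrast. Spots with like neighbours gave 1 for P21 in white matter, 3 for white against gray matter at P21 and 1 for the P21 contrast, and Cst7 turned to -0.12 in the adult. White against gray matter at P21 gave 2 by the myelin score, 2 with plain totals, 2 scaled per spot and 0 thinned. The P21 contrast gave 1 scaled per spot and 0 thinned. Thinning gave 3 in the striatum and turned Cst7 to -1.61 in the contrast at 28 months, and DESeq2 gave 1 in the hippocampus. Scaled per spot, chosen after seeing the data, Lpl turned to -0.011 in white against gray matter at 28 months and Axl to -0.079 in the contrast. Apart from the filter, the causes were not tested.

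At 28 months the share of spots with a UMI in white matter, as the median over the 9 members averaged over both sections, was 35.3% with thinning and 62.1% without it, and the level 1 step from white matter over that at 3 steps was 2.44 by the myelin score. Deviations of same-numbered sections correlated at -0.38 to 0.16 over whole sections and at -0.42 to 0.19 in gray matter. With 2 sections per age these values cannot show whether replicate numbers pair the sections. With the replicate number as a block, 9 members were called in white matter at 28 months, 5 in gray matter and 5 over whole sections, 5 in the cortex, 3 in the hippocampus, 4 in the hypothalamus, 6 in the striatum and 8 in the thalamus, and at P21 3, 2 and 2 in white matter, gray matter and whole sections, the counts without it. With 2 sections per age, and 3 UMIs of Itgax and 17 of Cst7 in adult white matter, folds of the lowest members are imprecise.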
